A study of Homo sapiens with 1 sample.

Results

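To describe which genes of the kidney lineage program were accessible in a renal carcinoma line, 8 transcription factor genes were examined in the ATAC-seq peak list of 786-O cells. The genes were PAX8, PAX2, HNF4A, HNF4G, LHX1, WT1, SIX2 and EMX2. A peak was counted when its summit, the point of highest read depth, lay inside 1 of these genes or within 100 kb of either end of the gene record in hg38 (GENCODE release 44). In total 108 of 88615 peaks on the 24 primary chromosomes met this rule. They lay at 7 of the 8 loci, and no peak was found at LHX1.

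ATAC-seq uses the Tn5 transposase to insert sequencing adapters into open DNA. 786-O is an established human line of clear cell renal cell carcinoma (ccRCC), and the cells analysed carried an empty vector (EV control) according to the labels. The names of the peaks hold a wild-type tag instead, and the label was used here. The peak list of 1 library was analysed, without a replicate and without a second group, so the values describe this library alone and no test between conditions was possible. The library with DPF3a overexpression, for which the study made this control, is not analysed here.

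These factors act in sequence while the kidney forms. PAX2, PAX8 and LHX1 specify the nephric duct and the early nephron, SIX2 and WT1 mark the progenitor cells from which nephrons arise, and EMX2 is needed for the ureteric bud and the urogenital tract. HNF4A and HNF4G are nuclear receptors of differentiated epithelium, HNF4A being a master regulator of the proximal tubule, the segment from which ccRCC is thought to arise. PAX8 persists in adult tubules and is a routine marker of renal tumours.

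The fold of a peak is its summit pileup, the depth of reads over the summit, relative to a single genome-wide background. Each fold followed from a whole pileup, so exact Poisson 95% intervals of the fold are given in parentheses. They cover counting error only. The weakest listed peaks had a pileup of 9, or fold 5.15 (2.64-9.32), so a site without a peak is one that did not reach this level and is not shown to be closed. The promoter window of a gene reached from 1 kb before to 100 bp after the start (TSS) of each annotated transcript. A gene was called open when at least 1 summit lay in such a window.

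The 4 open genes were PAX8, PAX2, HNF4G and WT1. HNF4A, SIX2 and EMX2 had no promoter peak although peaks lay around them, and LHX1 lay in sequence without any peak. Over all protein-coding genes, 12299 of 20033 (61.4%) had a promoter peak, compared with 50% of the 8 genes (exact Clopper-Pearson 95% interval, 15.7-84.3). This interval covers the background share, so the count does not set the 8 genes apart from other coding genes. HNF4G had the highest promoter fold, 46.9 (37.8-57.5). It was followed by PAX8 with 31.9 (24.6-40.9), PAX2 with 22.7 (16.6-30.4) and WT1 with 20.1 (14.4-27.4). Neighbours in this order had overlapping intervals, whereas the interval of HNF4G lay above those of PAX2 and WT1. Across open coding genes the median of the highest promoter fold was 25.8 (quartiles, 16.0 and 39.2). HNF4G exceeded 83.6% of them, PAX8 62.0%, PAX2 41.5% and WT1 34.7%.

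**Figure D1:**
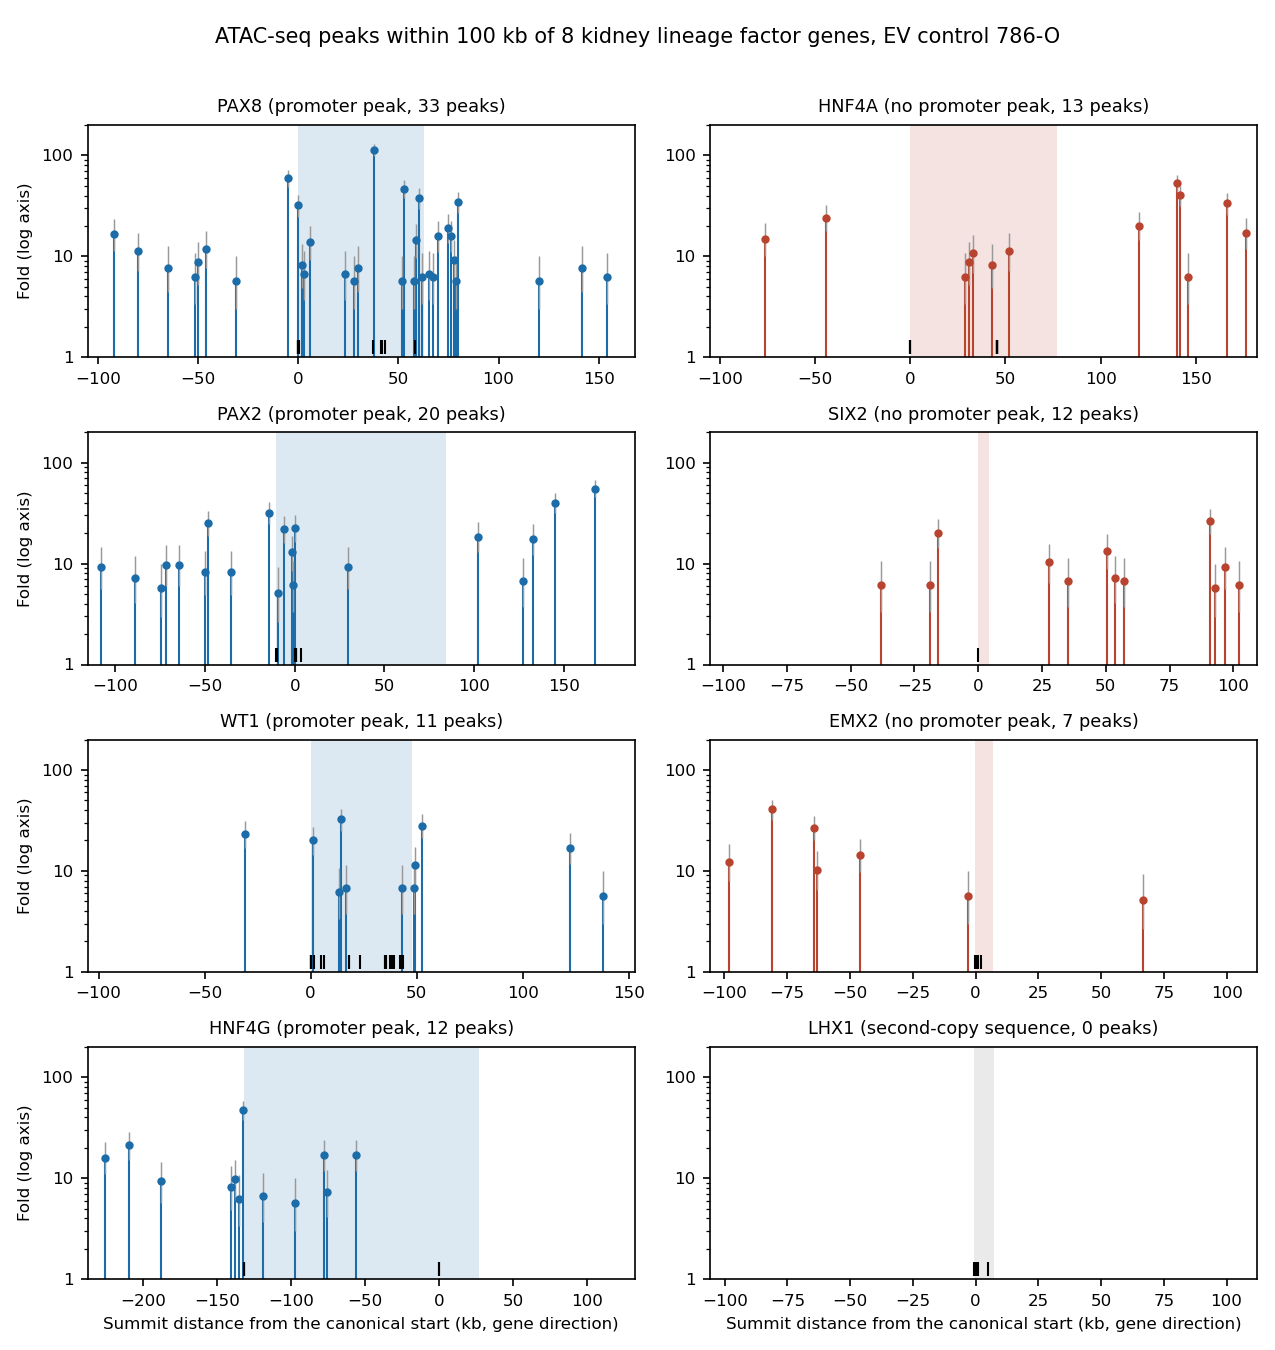
Peaks at the 8 loci. Each point is a peak, at its summit distance from the canonical TSS in kb (positive downstream in the direction of transcription) and its fold on a log axis, with an exact Poisson 95% interval in grey. Shading marks the gene and black ticks the start sites. Blue genes have a promoter peak, red genes have none and LHX1, in grey, lies where the reference holds a second copy. PAX8 holds 33 peaks and the highest fold, 113.4, whereas SIX2 and EMX2 have no summit inside the gene.

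PAX8 had the densest set of peaks. The gene (ENSG00000125618.18) lies on the minus strand at chr2:113215997-113278921. Its locus held 33 peaks, or 125.5 per Mb, which was more than at 98.0% of protein-coding genes, whose median was 11 peaks (quartiles, 6 and 17). At least 1 peak was found within 100 kb of 95.2% of coding genes. Inside PAX8 there were 13 summits, and 16 of the 33 lay within 10 kb of 1 of its start sites. PSD4 and IL1RN start in the same 100 kb window, and PAX8 was the coding gene with the nearest TSS for 22 of the 33 summits. The others were nearest to PSD4, IL1RN or ZNG1B. Of the 33 peaks, 16 had a pileup under 15, compared with 35.7% of all peaks in the list, and the median fold was 8.24.

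The strongest peak at any of the 8 loci lay within PAX8. It spanned 2875 bp (chr2:113239943-113242817) with a fold of 113.4 (98.9-129.3), at a pileup of 219. It ranked 44 among all peaks and 2 among the 7821 peaks of its chromosome. The summit was 37775 bp downstream of the canonical TSS, in an exon of a noncoding transcript of PAX8 and inside the antisense gene PAX8-AS1. It lay 633 bp downstream of an internal start site of PAX8, which had no summit in its own promoter window. The interval of the peak covered this start. The next strongest peak, 3170 bp wide (chr2:113281563-113284732), lay 5015 bp upstream of the canonical TSS with a fold of 59.3 (49.0-71.1). A peak with a fold of 46.9 (37.8-57.5) followed inside the gene, 52769 bp downstream of the TSS (chr2:113225332-113226597). The intervals of these last peaks overlapped each other, whereas that of the strongest peak lay above both. The strongest and the upstream peak had intervals above that of the canonical promoter, 24.6-40.9, and the interval of the other overlapped it.

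These 3 summits are printed with 50 bases to each side on the plus strand (hg38), because they carried the highest folds of the locus. Capitals mark matches to the motif strings searched, and none of the strings matched at the first or second summit. In the third, GTGGGTG matches the WT1/EGR string and ATTAAC is the reverse complement of GTTAAT, the short HNF1 string.
chr2:113241096-113241196: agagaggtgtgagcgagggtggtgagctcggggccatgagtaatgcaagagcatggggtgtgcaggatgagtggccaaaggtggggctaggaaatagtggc
chr2:113283886-113283986: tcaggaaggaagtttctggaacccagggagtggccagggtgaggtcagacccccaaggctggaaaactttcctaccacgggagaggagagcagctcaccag
chr2:113226102-113226202: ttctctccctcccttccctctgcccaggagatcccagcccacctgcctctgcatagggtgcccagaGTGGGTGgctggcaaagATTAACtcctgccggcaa

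The PAX8 promoter itself was open with a fold of 31.9 (24.6-40.9) at a summit 59 bp upstream of the canonical TSS. A weaker summit, fold 5.67 (2.99-9.99), lay 802 bp upstream of an internal start site near the 3′ end. Of the 6 groups of start sites of PAX8 (sites within 500 bp joined), 2 therefore had a summit. The other 4 had none in their windows, although the summit of the 113.4-fold peak lay between 633 and 5703 bp from each. The promoter fold was close to that of the surroundings, as 28 coding genes within 5 Mb had a promoter peak, with a median of 34.8, and 13 of them had a lower fold than PAX8. At the 3′ end a peak of fold 37.6 (29.5-47.2) overlapped the untranslated part of the last exon (chr2:113217739-113219308), which PAX8-AS1 also covers.

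PAX2, the paralogue of PAX8 in the early nephric lineage, was open at its canonical start. The gene (ENSG00000075891.24) lies on the plus strand at chr10:100735396-100829944. Its locus held 20 peaks, or 67.9 per Mb, more than at 81.9% of coding genes. The promoter peak had its summit 18 bp upstream of the canonical TSS with a fold of 22.7 (16.6-30.4), and a second, weak summit of fold 6.18 (3.34-10.7) lay 985 bp upstream. The first start site of the gene, further upstream, had no summit in its window. A peak of the lowest listed fold, 5.15 (2.64-9.32), covered it (chr10:100735315-100736382), with the summit 420 bp from another start of the same group, at position 100735603. Of 100 open coding genes within 5 Mb, 37 had a lower promoter fold than PAX2, and their median was 31.2.

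The peaks around PAX2 lay mainly on its upstream side and in the first part of the gene. The strongest of those nearest to PAX2 was a 3210 bp interval (chr10:100728916-100732125) with a fold of 31.9 (24.6-40.9), 14458 bp upstream of the canonical TSS and 4272 bp upstream of the first start. An intronic peak 5852 bp upstream of the canonical TSS had a fold of 22.2 (16.1-29.8). The last 5 summits of the window lay beyond the 3′ end and were nearest to SLF2. They included the 2 highest folds of the locus, 39.7 (31.4-49.5) and 55.1 (45.2-66.6), the latter at the SLF2 promoter, 86 bp from its TSS.

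Upstream sequences of 250 bases that end at the canonical start are printed for PAX8 and PAX2 in the direction of transcription (hg38, read at GENCODE starts, minus strand for PAX8). Every CpG dinucleotide is in capitals, because the CpG content of open and closed genes is compared. PAX8 has 11 CpGs and PAX2 has 15. The median over 35116 RefSeq promoter entries was 11 (quartiles, 3 and 23), counted in the same 250 bases before each start.
PAX8 chr2:113278922-113279171: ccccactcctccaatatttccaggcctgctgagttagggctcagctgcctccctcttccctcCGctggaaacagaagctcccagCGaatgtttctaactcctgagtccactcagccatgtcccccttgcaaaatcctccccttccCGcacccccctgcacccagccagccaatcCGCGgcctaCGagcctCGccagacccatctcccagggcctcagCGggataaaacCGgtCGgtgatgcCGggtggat
PAX2 chr10:100745332-100745581: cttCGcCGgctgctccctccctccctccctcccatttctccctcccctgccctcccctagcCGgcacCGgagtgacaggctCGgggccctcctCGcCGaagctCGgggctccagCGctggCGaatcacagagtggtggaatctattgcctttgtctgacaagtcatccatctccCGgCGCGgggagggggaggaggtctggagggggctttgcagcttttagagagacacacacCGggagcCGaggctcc

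SIX2 and EMX2 had CpG-rich promoter windows without a peak. SIX2, a homeobox factor that keeps nephron progenitors undifferentiated, lies on the minus strand at chr2:45005182-45009452 (ENSG00000170577.8). Its locus held 12 peaks, close to the median of all coding genes, and none of them lay inside the gene. The nearest summit was 15615 bp upstream of the TSS with a fold of 20.1 (14.4-27.4). The strongest, fold 26.3 (19.6-34.5), lay 90865 bp downstream, and one of fold 13.4 (8.85-19.5) lay 50369 bp downstream. For 8 of the 12 summits the nearest coding TSS was that of the neighbouring paralogue SIX3, which had no promoter peak either. The median fold was 6.96, the lowest of the 7 loci with peaks.

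EMX2, a homeobox factor of the urogenital tract, lies on the plus strand at chr10:117542445-117549546 (ENSG00000170370.12). Its 7 peaks were the fewest of the 7 loci, and only 25.1% of coding genes had fewer. No summit lay inside the gene. The nearest was 3077 bp upstream of the canonical TSS and weak, with a fold of 5.67 (2.99-9.99). The strongest peaks lay further upstream, at 80787 bp with a fold of 40.7 (32.3-50.7) at 64315 bp with a fold of 26.8 (20.1-35.1) and at 45914 bp with a fold of 14.4 (9.68-20.8). Just past the 100 kb limit, at 100297 bp, lay a peak with a fold of 73.2 that was not counted. Around SIX2, 34 of 49 coding genes within 5 Mb had a promoter peak (69.4%), and around EMX2 39 of 56 (69.6%).

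The same 250 bases are printed for both genes in the direction of transcription (hg38, minus strand for SIX2), again with CpGs in capitals. SIX2 has 26 CpGs, more than 80.4% of the RefSeq promoter entries, and no peak overlapped these bases. EMX2 has 12 upstream of its first start, which is the sequence printed, more than 51.5% of the entries and thus near their median. Upstream of its canonical start it has 20, more than 67.55%.
SIX2 chr2:45009453-45009702: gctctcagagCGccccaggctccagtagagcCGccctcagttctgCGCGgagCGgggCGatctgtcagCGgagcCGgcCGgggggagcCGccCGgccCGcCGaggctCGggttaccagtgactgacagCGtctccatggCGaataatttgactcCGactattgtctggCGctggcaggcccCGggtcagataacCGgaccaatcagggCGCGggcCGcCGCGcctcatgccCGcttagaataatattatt
EMX2 chr10:117542195-117542444: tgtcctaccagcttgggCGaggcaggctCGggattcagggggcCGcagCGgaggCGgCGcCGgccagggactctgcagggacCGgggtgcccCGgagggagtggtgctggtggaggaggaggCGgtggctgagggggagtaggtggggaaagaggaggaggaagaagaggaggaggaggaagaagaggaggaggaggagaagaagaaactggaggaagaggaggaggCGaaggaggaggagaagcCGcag

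LHX1, a LIM homeobox factor of the nephric duct and the early nephron, could not be read. The gene (ENSG00000273706.5) lies on the plus strand at chr17:36936785-36944612, and the nearest summit was 1173157 bp from its canonical TSS. The gap between neighbouring summits was 3089 kb long, between positions 35764318 and 38853679, and held 55 canonical starts of coding genes, that of LHX1 included. Of this gap, 93.0% had a second copy among the alternative sequences of the reference, including the whole LHX1 locus, which lay in a block of such sequence at chr17:36576340-37398642. The 1 alternative sequence that matched there also had no peak. Reads that match at 2 places receive a low mapping quality, and the authors removed such reads. Across the genome, 9 of 761 coding genes with the promoter wholly in such sequence had a promoter peak (1.18%), compared with 12288 of 19268 outside it (63.8%). The absence of peaks at LHX1 and the removal of reads cannot be told apart. Without LHX1, 4 of 7 genes were open (57.1%; 18.4-90.1).

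WT1, a zinc finger factor of nephron progenitors and podocytes, was open, but not at its canonical start. The gene (ENSG00000184937.16) lies on the minus strand at chr11:32387775-32435564, and its 11 peaks equalled the median of all coding genes. The promoter summit, fold 20.1 (14.4-27.4), lay 897 bp downstream of the canonical TSS and 474 bp upstream of a second start site, in an intron. The interval, 1709 bp wide (chr11:32434180-32435888), covered the canonical start as well. The window also belongs to the antisense gene WT1-AS, so the gene to which the open site belongs cannot be told apart. Among the 12 groups of start sites of WT1, 1 other had a summit, near the 3′ end and weak, with a fold of 6.70 (3.71-11.3). Of 34 open coding genes within 5 Mb only 7 had a lower promoter fold than WT1, and their median was 31.2. The strongest peak of the locus lay in an intron 14366 bp downstream of the TSS (chr11:32420714-32421550) with a fold of 32.5 (25.01-41.5). It was followed by a peak 4984 bp past the 3′ end with a fold of 27.8 (21.0-36.2) and by one in WT1-AS, 31144 bp upstream, with a fold of 23.2 (17.0-31.0). The intervals of these 3 peaks and of the promoter overlapped.

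The nuclear receptor genes HNF4A and HNF4G differed from each other. HNF4A, the regulator of the proximal tubule and of hepatocytes, lies on the plus strand at chr20:44355699-44432845 (ENSG00000101076.20) and has start sites at P2, the upstream and here canonical promoter, and at P1. Neither had a peak. From P2 the nearest summit was 28898 bp away with a fold of 6.18 (3.34-10.7), and P1 had one 2662 bp upstream with a fold of 8.24 (4.84-13.3). The 5 summits inside the gene had folds of 6.18 to 11.3. The 73.3 kb gap between the summits around P2 held 2 canonical starts of coding genes, that of HNF4A included. In the window, 4 other coding genes had a promoter summit. GDAP1L1, which also starts there, had none, nor had the other coding gene with its start in the gap. The folds of these 4 were 24.2 (17.9-32.1) at FITM2, 20.1 (14.4-27.4) at TTPAL, 33.5 (25.9-42.6) at SERINC3 and 17.0 (11.8-23.8) at PKIG. The interval of the highest summit inside the gene, 7.21-17.1, overlapped those of PKIG and TTPAL and lay below those of FITM2 and SERINC3. The strongest peaks of the window, with folds of 53.1 (43.4-64.3) and 40.2 (31.8-50.1), lay next to SERINC3, 140312 and 141516 bp from P2. Thus the HNF4A locus had an ordinary number of peaks (13, more than at 55.2% of coding genes), but only 5 were nearest to HNF4A.

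The 250 bases upstream of P1 are printed (hg38, plus strand), because this promoter carries strings of the HNF1 family and yet no peak. Capitals mark TGAGTCA, a match to the AP-1 string TGANTCA, and 2 copies of ATTAAC, the reverse complement of GTTAAT. A match to the homeodomain string (TAATTA) and a match to the WT1/EGR string (CCCCCAC) are left in lower case. Of RefSeq promoter entries, 6.57% held the AP-1 string and 6.23% the short HNF1 string on either strand. A match of letters does not show a bound site. The P1 sequence has 8 CpGs, as has the same stretch upstream of P2.
HNF4A P1 chr20:44400989-44401238: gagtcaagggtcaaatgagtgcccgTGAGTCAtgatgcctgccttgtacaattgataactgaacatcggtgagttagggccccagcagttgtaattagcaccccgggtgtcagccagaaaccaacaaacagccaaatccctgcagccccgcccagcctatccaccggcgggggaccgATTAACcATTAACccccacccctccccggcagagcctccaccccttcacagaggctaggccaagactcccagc

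In the surroundings of HNF4A, 64 of 96 coding genes within 5 Mb had a promoter peak (66.7%), with a median fold of 24.2. The promoter CpG ratio of HNF4A, the observed number of CpGs over the number that the C and G content would give, was 0.280, close to 0.288 at PAX8. PAX8 was open and HNF4A was not, so genes with a like CpG ratio fell on both sides.

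HNF4G, the paralogue of HNF4A in intestine and kidney epithelium, had the strongest promoter of the 8 genes. It lies on the plus strand at chr8:75407914-75566834 (ENSG00000164749.13). The peak was 2705 bp wide and its summit lay 579 bp upstream of the outer start site, with a fold of 46.9 (37.8-57.5). The canonical start, at position 75539869, had no peak, and the nearest summit was 56381 bp away. Of its 12 peaks, 5 lay inside the gene, all in introns between the 2 start sites, with folds of 5.67 to 17.0. The second strongest peak of the locus, fold 21.1 (15.2-28.6), lay 77368 bp upstream of the outer start. HNF4G was the coding gene with the nearest TSS for all 12. Its fold was below the median of the 25 open genes within 5 Mb, 60.3, and 8 of these had a lower fold. The outer start of HNF4G thus had a peak, whereas neither start of HNF4A had one.

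**Figure D2:**
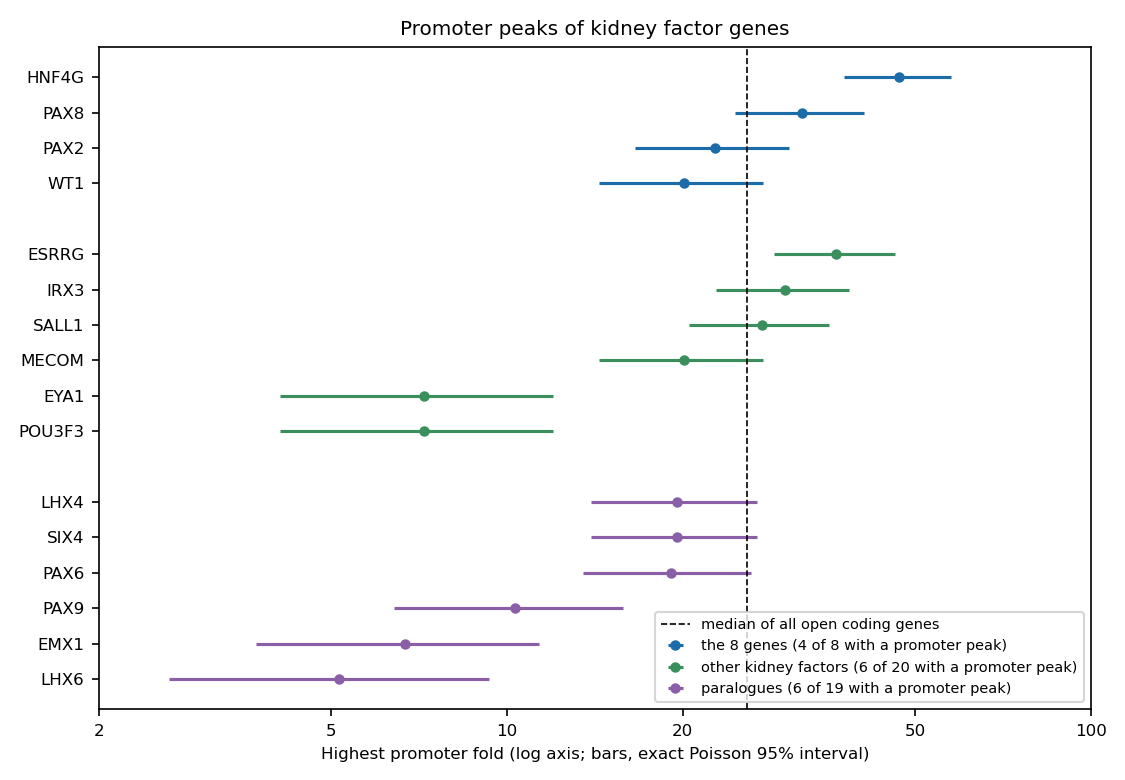
Highest promoter fold of the open genes among the 8 kidney lineage factors (blue), 20 other kidney transcription factors (green) and 19 paralogues (purple), on a log axis. Bars are exact Poisson 95% intervals and the dashed line is the median over all open coding genes, 25.8. HNF4G and ESRRG lie above the line with their intervals, both at starts other than the canonical one, and no paralogue has its point above it.

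The open and closed loci were then set side by side. The 4 open loci held 76 peaks and the 3 closed loci with peaks held 32. The median fold was similar, 9.28 and 10.6. Inside the gene lay 29 of the 76 and 5 of the 32. Within 10 kb of an own TSS there were 34 and 3, respectively. Of the 18 peaks with a fold of 20 or more at open loci, 15 were nearest to the factor gene. At closed loci 3 of 9 were. The median width was 613.5 bp at open and 484 bp at closed loci. Genes are not replicates of a condition, and PAX8 alone gave 33 of the 76 peaks, so these values describe 7 genes and were not tested. Open genes were chosen by a summit at a TSS, which in part fixes these counts, and gene length differed, from 47790 to 158921 bp at the open genes, with 4271 bp at SIX2, 7102 bp at EMX2 and 77147 bp at HNF4A.

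**Figure D3:**
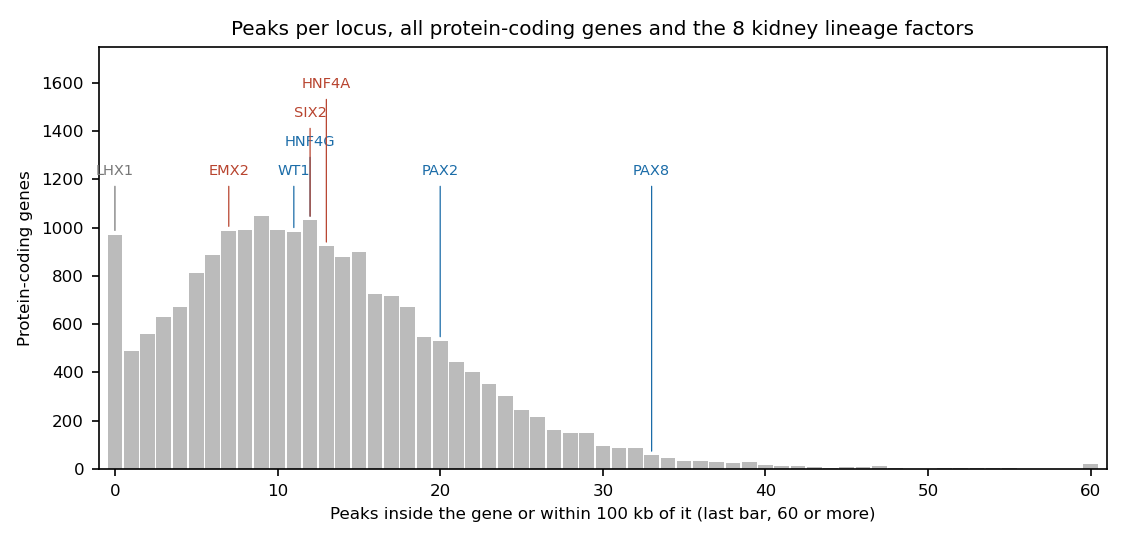
Number of peaks inside each protein-coding gene or within 100 kb of it (horizontal axis) against the number of genes with that count (vertical axis). The 8 factor genes are marked in blue (promoter peak), red (none) or grey (LHX1). PAX8, with 33 peaks, stands in the upper tail, whereas HNF4A, SIX2, WT1 and HNF4G lie between 11 and 13 peaks, next to the median of 11.

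The CpG content of the canonical start did not order the 8 genes, called open at any start, as it did the genome. With canonical starts alone, only PAX8 and PAX2 were open. In the promoter window of the canonical start, the median CpG ratio was 0.707 in open and 0.358 in closed coding genes. Among genes with a ratio of 0.75 or more, 84.5% had a promoter peak. SIX2 (0.760), EMX2 (0.764) and LHX1 (0.839) exceeded this value and none of them was open. The genes open at any start had lower ratios at their canonical start, 0.654 at PAX2, 0.622 at WT1, 0.288 at PAX8 and 0.0982 at HNF4G. HNF4A, without a promoter peak, had 0.280, lower than 3 of the 4 open genes. The values of HNF4G and WT1 belong to canonical starts without a summit in their window, and that of LHX1 to sequence that could not be read. In the list of other kidney factors, 3 of 10 genes with a ratio of 0.75 or more were open, and in the paralogues 2 of 3. These counts depended on the window. Among the closed genes, FOXC2 (0.897) and SIX5 (0.762) became open with 1 kb to both sides, and LMX1B (0.818) with 2.5 kb.

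**Figure D4:**
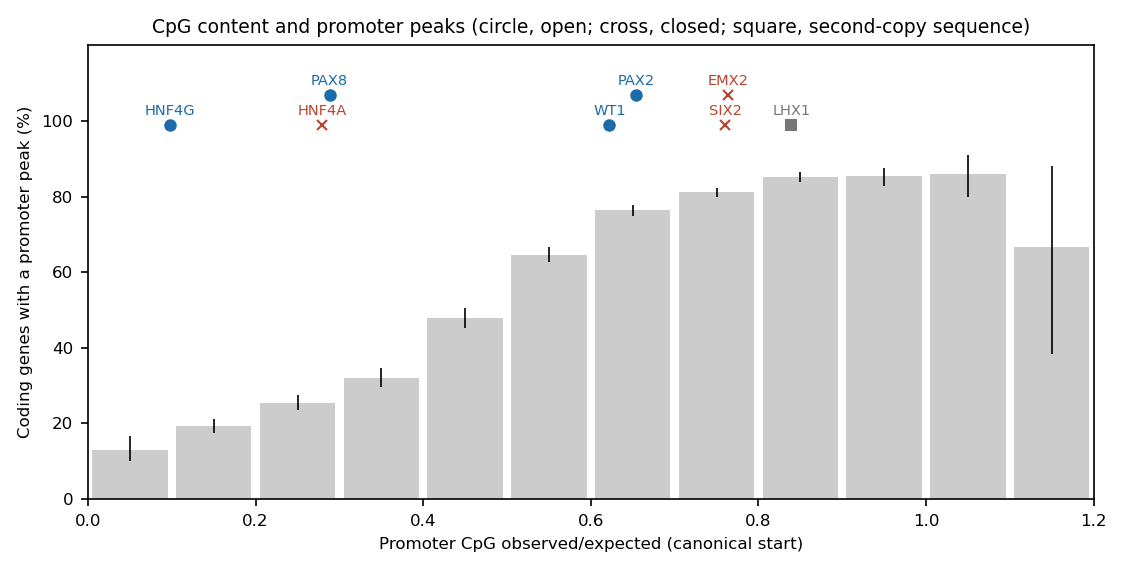
Share of protein-coding genes with a promoter peak (bars, %, with exact Clopper-Pearson 95% intervals) by the CpG ratio of the promoter at the canonical start. Symbols above the bars place the 8 genes at their own ratio and have no vertical scale. The share rises from 13.1% in the lowest bin to 81.2% at ratios of 0.7 to 0.8, where SIX2 and EMX2 (crosses, no promoter peak) stand.

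Beyond the 8 genes, 6 of 20 other transcription factor genes of kidney development and tubules had a promoter peak (30%; 11.9-54.3). The share over all coding genes, 61.4%, lay above this interval, and the difference was not tested. With promoter windows reaching 1 or 2.5 kb to both sides, 10 and 11 of the 20 were open. The share over all coding genes was not counted at these windows. The highest folds were found at ESRRG (36.6; 28.6-46.1), an orphan nuclear receptor, and at IRX3 (29.9; 22.8-38.6) and SALL1 (27.3; 20.5-35.6), factors of early nephrons and their progenitors. MECOM (20.1; 14.4-27.4) followed, while EYA1 and POU3F3 each had a weak peak (7.21; 4.08-12.0). Without a promoter peak, the genes of highest CpG ratio were FOXC2 (0.897), which had a summit 428 bp from its canonical TSS and was open with 1 kb to both sides, IRX1 (0.892), LMX1B (0.818), GATA3 (0.816), a factor of the collecting duct, and IRX2 (0.794).

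The paralogues, which share DNA-binding domains with the 8 factors but act mainly in other organs, gave a like share of 6 of 19 (31.6%; 12.6-56.5). This interval also lay below the 61.4% of all coding genes, and the difference was not tested. SIX4 and LHX4 had promoter folds of 19.6 (13.9-26.8), PAX6 of 19.1 (13.5-26.2) and PAX9 of 10.3 (6.41-15.8). EMX1, with 6.70 (3.71-11.3), and LHX6, with 5.15 (2.64-9.32), were near the lower limit. Thus open genes were found outside the kidney set in the families of PAX8, SIX2, LHX1 and EMX2 as well. For EMX2 this rested on the weak peak of EMX1 alone, which was lost above a score of 100. The closed paralogues of highest CpG ratio were SIX5 (0.762), open with 1 kb to both sides, LHX5 (0.723), PAX5 (0.702), LHX2 (0.694) and PAX7 (0.592).

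As a check of the label, promoters of VIM (47.9), KRT8 (43.3), KRT18 (8.24) and PAX8 (31.9), genes of renal carcinoma and epithelial lines, had peaks at the folds given. CA9, a hypoxia target and ccRCC marker, had none. Of 6 marker genes of blood, endothelium, liver and muscle (PTPRC, CD3E, PECAM1, CDH5, ALB and MYOD1), 0 had a promoter peak (0-45.9%), and PTPRC lay in sequence with a second copy. The median CpG ratio of these 6 was 0.2185, and 25.5% of coding genes with a ratio of 0.2 to 0.3 had a promoter peak. Of the 5 renal or epithelial genes 80% had one (28.4-99.5), compared with 61.4% of all coding genes. Both counts are therefore a weak check.

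Peaks at the 8 loci were otherwise much like those of the genome. Their median fold was 9.79, compared with 10.8 over all peaks, and their median width was 553 bp, compared with 522 bp. No promoter of any gene was hit by 91 of them (84.3%, compared with 80.6% of all peaks). Of the others, 7 lay in a promoter of the factor gene itself, 5 in that of another coding gene and 5 in that of a noncoding gene only, among them HNF4A-AS1, PAX8-AS1, LINC02966, MIR3646 and CASC9. Together the loci spanned 2.061 Mb and held 52.4 peaks per Mb, a pooled value to which PAX8 gave 33 peaks at 125.5 per Mb. The median over the loci of all coding genes was 44.4 per Mb, taken per gene and so not the same measure. At 5 of the 108 peaks (4.63%, compared with 2.89% of all peaks) the interval was 2 kb or wider, at PAX8, PAX2 and HNF4G. At the 7 loci with peaks, the outermost counted summits lay 89981 to 99021 bp from the gene with folds of 5.67 to 17.0. The first ones not counted lay 100297 to 139370 bp away with folds of 5.15 to 73.2.

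Both strands were searched for short motif strings, up to 50 bp from each of the 108 summits. TGANTCA, the AP-1 site, was found at 20 (18.5%; 11.7-27.1), compared with 19.97% of all peaks. GTGGGNG, shared by WT1 and EGR factors, was found at 18 (16.7%; 10.2-25.1), compared with 9.71% of all peaks, and 8 of the 18 were at PAX8. The interval lay above the background share. It was 1 of 12 strings compared, the string is GC-rich, and base composition was not matched, so this is a description. ACGTG, the HIF core, was at 9 (8.33%, compared with 7.04%), GGAATG, the TEAD string, at 10 (9.26%, compared with 9.41%) and the CTCF string at 4 (3.70%, compared with 2.80%). TGTGGTT of RUNX factors was at 4 (3.70%, compared with 5.25%).

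The other strings were found at few summits. GTTAAT, the short HNF1 string, was found at 3 summits (2.78%, compared with 3.67%), of which 2 were at PAX8 and 1 at HNF4G. TAATTA of homeodomain factors was at 2, 1 at HNF4G and 1 in WT1-AS, and CCGGAAGT of ETS factors at 1. The PAX core GTCACGC, the HNF4 site CAAAGTCCA and TCAGGTTTC, a site of SIX2-type factors, were found at 0 of 108 summits, which allows shares of up to 3.36%. Their shares over all peaks were 0.650%, 0.194% and 0.147%, so these counts could not show a difference. The strings are single spellings of longer and variable sites, and AP-1 and the other strings may overlap at 1 summit.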

How the data were processed

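ATAC-seq of EV control 786-O cells (1 library) was analysed. According to the study's methods and processing notes, the authors used fastp for trimming and Bowtie2 2.3.4.3 for alignment to hg38, removed mitochondrial reads, reads of low mapping quality and duplicates, and called peaks with MACS2 2.2.6 against a genome-wide background. A shift of reads to the Tn5 cut is not stated, so summits may lie some bases off. The deposited ratio is the fold enrichment of the summit, the deposited significance values are −log10 p-values and q-values, and the deposited score is derived from the q-value, with a lowest score of 52. A minimum pileup of 9 gives the depth behind the weakest peaks, while the total number of reads is unknown.

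Pileups were recovered from the folds with a background of 0.941 and were whole to within 1.83e-05. Start sites came from GENCODE release 44. Sequence with a second copy was found by aligning 261 alternative sequences to their own chromosomes with minimap2 2.31 (at least 10 kb, at most 5% divergence). Python 3.11.15, numpy 2.4.6, pandas 2.3.3, scipy 1.17.1, pysam 0.24.0 and matplotlib 3.10.9 were used. The functions were tested on simulated data, where 200 of 200 genes received their planted class. The genes, lists and strings were chosen with earlier results of these data known. Some genes of the comparison lists are not reported here, and the counts leave them out. All 8 genes were described with each promoter summit, the nearest summit and the 3 strongest. From the other lists, the 5 genes of highest promoter fold and the 5 closed genes of highest CpG ratio were named. RefSeq promoters (GRCh38.p14) were matched by symbol for 6 of the 8 genes. Alternatives were other windows, start sites and score minimums.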

Additional observations from a re-analysis of the deposited data

How the results depend on the processing

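No paired analysis was possible because only 1 library was analysed. The number of peaks at the 8 loci depended on the window, with 204 within 250 kb and 34 in the gene records alone, and on the score, with 70 peaks above a score of 100 and 46 above 200. The median fold was 16.2 and 21.6 at these scores. With canonical starts alone 2 of the 8 genes were open, since HNF4G and WT1 were lost. No other promoter window or score tried changed the number of 4. Open genes among the other kidney factors numbered 10 with windows of 1 kb to both sides or when the interval had only to overlap the promoter (FOXC2 and, among paralogues, SIX5 became open), 11 with windows of 2.5 kb to both sides (LMX1B also), and 2 with canonical starts alone. Above a score of 100 or of 200, 4 of the other kidney factors were open, since EYA1 and POU3F3 were lost. Above a score of 200, 3 paralogues were open. After seeing the data, the counts outside second-copy sequence (4 and 6 open) and without the PAX8 locus (75 peaks, median fold 10.3) were added. Depth limited the weakest sites, as 41 of the 108 peaks (38.0%) had a pileup under 15, and the copy number of the loci is unknown.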
